A study of Mus musculus with 6 samples.

Results

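The mouse mitochondrial chromosome carries 37 annotated genes, and all 37 had rows in the deposited count table. They were taken as every gene whose symbol starts with mt-, after transcript rows were summed per gene, and they are 37 of the 55263 genes with rows. The set comprises 13 protein genes, 2 ribosomal RNA (rRNA) genes and 22 transfer RNA (tRNA) genes, each with a single annotated transcript. The cells were mouse wild-type macrophages differentiated in culture from bone marrow, and each of 3 groups had 2 libraries: cells given lipopolysaccharide (LPS) together with a preparation labelled HACA, cells given LPS alone, and control cells. LPS is a bacterial membrane component sensed by the receptor TLR4. What HACA stands for, its dose and the length of treatment are not in the labels. Nothing there places the replicates in separate cultures or animals either, so the p-values reflect the spread between libraries, whose source is not given. That spread included cell cycle genes and markers of other cell types, as described below. RNA was selected with poly-A beads before library preparation, per the labels' protocols. Total counts ranged from 12529874 to 15379496 per library, and the mitochondrial genes together held 385679 to 478503 counts per library.

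Mitochondrial DNA is transcribed from both strands into long precursors that run through many genes. Transfer RNA genes punctuate the protein and rRNA genes, and excision of the tRNAs releases the individual messenger and ribosomal RNAs, most of which then receive poly-A tails. The protein genes encode core subunits of respiratory chain complexes I, III and IV and of ATP synthase (complex V), which are assembled with many more subunits made from nuclear genes. LPS-activated macrophages are known for shifting ATP production from respiration towards glycolysis, and newly made mitochondrial DNA is linked to inflammasome activation in these cells.

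The genes lie close together on the chromosome and some share bases, which bears on every count that follows. The genes mt-Atp8 (chrM:7766-7969) and mt-Atp6 (chrM:7927-8607), both ATP synthase subunits, are read from the same strand and share 43 bases. In the following sequences of the GRCm38 build, the end of mt-Atp8 (chrM:7910-7969, plus strand) and the start of mt-Atp6 (chrM:7927-7986, plus strand), the shared bases are in capitals. They are shown because only 161 of the 204 bases of mt-Atp8 belong to that gene alone.
mt-Atp8 end: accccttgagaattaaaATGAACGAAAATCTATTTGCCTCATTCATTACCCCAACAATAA
mt-Atp6 start: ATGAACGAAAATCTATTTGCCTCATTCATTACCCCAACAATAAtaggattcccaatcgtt

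The genes mt-Nd5 (chrM:11742-13565, plus strand) and mt-Nd6 (chrM:13552-14070, minus strand), both subunits of complex I, meet end to end on opposite strands with an overlap of 14 bases. Their last 40 bases (chrM:13526-13565 and chrM:13552-13591) are given with the overlap in capitals, because mt-Nd6 is the only protein gene on the minus strand.
mt-Nd5 end: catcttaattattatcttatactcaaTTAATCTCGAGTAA
mt-Nd6 end: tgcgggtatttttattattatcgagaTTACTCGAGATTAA
The sources used here do not say that the counting used strand. Reads of mt-Nd6, and of the 8 minus-strand tRNA genes, therefore cannot be told apart from antisense RNA of the other strand. The ratio of mt-Nd5 to mt-Nd6 counts stayed between 3.10 and 3.35 in the 6 libraries.

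Copies of mitochondrial sequence in the nuclear genome drew counts alongside the mitochondrial genes. A row of unprocessed pseudogenes on the minus strand of chromosome 1 holds 7 copies with 99.7% to 100% identity, from Gm28439 (chr1:24611535-24612410) to Gm29216 (chr1:24615706-24616197). Gm28661, identical to 681 bases of the complex IV gene mt-Co2, had 320639 counts over the 6 libraries against 320279 for mt-Co2 itself. In the separate libraries the copy stood at 100.1% of the counts of mt-Co2 throughout. Gm28437 stood at 100.1% of mt-Co3 in every library, and Gm10222 at 99.8% to 100.3% of mt-Nd4l. Counts this close do not show whether a read that matched both places was counted at both or divided between them. How shared reads were treated is not given, and whether any came from the nuclear copy cannot be told apart from these counts.

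The 2 partial copies had fewer counts than their genes. Gm28439 covers 876 bases, or 63.6%, of mt-Nd4 and had 52.7% to 55.9% of its counts. Gm29216 covers the last 483 bases, or 31.3%, of mt-Co1 and had 18.9% to 23.9% of its counts. Gm10925, identical to 678 bases of mt-Atp6, had more counts than its gene, at 134.1% to 136.9%. The bases that mt-Atp6 shares with mt-Atp8 have no such partner at the copy, and the counts of mt-Atp8 and mt-Atp6 together came to 89.3% to 89.9% of those of Gm10925.

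Gm28438 differs from mt-Nd3, a complex I gene, at 1 of 345 bases, the substitution T3C counted from 1 at the 5′ end of mt-Nd3. The first 18 bases are given for the gene (chrM:9459-9476, plus strand) and for the copy (chr1:24613102-24613119, minus strand) with the differing base in capitals, since it is the 1 mismatch among the 345 aligned bases. The other 3 of the 348 bases of mt-Nd3 did not align.
mt-Nd3: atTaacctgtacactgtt
Gm28438: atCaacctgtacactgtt
The copy had 102.6% to 104.1% of the counts of mt-Nd3. Copies on chromosome 2 with lower identity had far fewer counts: Gm13341, at 95.9% identity, had 2.37% to 2.99% of the counts of mt-Co2, and Gm13340, at 97.6% identity, had 0.81% to 1.17% of those of mt-Co1. Adding all 11 copies found raised the mitochondrial share to 5.19% and 4.55% of counts in LPS+HACA cells, 4.69% and 3.96% in LPS cells, and 5.21% and 5.37% in control cells. If shared reads were counted at both places, this sum holds them again and is not a share of separate reads. The ratio of LPS to control was 0.82 with the copies and 0.81 without them, which are not independent values.

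**Figure D1:**
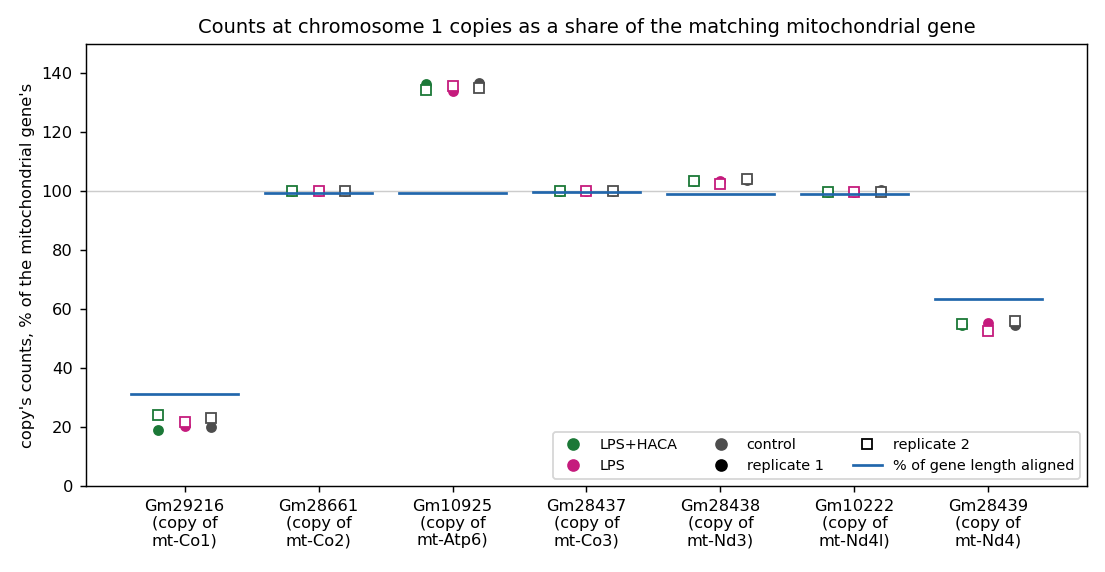
Counts at each chromosome 1 copy as a percentage of the counts at its mitochondrial gene (vertical axis) for 7 copies in map order of the gene (horizontal axis); filled circles are replicate 1, open squares replicate 2, colours the groups, and the blue line the share of the gene's length that aligns to the copy. The full-length copies of mt-Co2, mt-Co3 and mt-Nd4l sit at 100% in all 6 libraries, while Gm10925 sits above 134%.

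Levels between genes are compared here as CPM, counts divided by the TMM-scaled library size, per kilobase of the bases that belong to 1 gene only. TMM is the edgeR scaling that sets libraries to a common level over the bulk of their genes. In control cells the highest levels by this measure were mt-Co2 at 5390 ± 98.2, mt-Atp6 at 5156 ± 75.8 and mt-Co1 at 5010 ± 346 CPM per kb (SD, n = 2). The other complex IV gene, mt-Co3, had 4516 ± 39.03 and mt-Atp8 had 4496 ± 114 CPM per kb. In both control libraries mt-Co2 stood above mt-Atp6, and mt-Co1 above mt-Co3, while mt-Atp6 overlapped mt-Co1 and mt-Co3 overlapped mt-Atp8. At the chromosome 1 copies mt-Atp6 and mt-Co2 stood in the other order. In the control libraries Gm10925, identical to 678 bases of mt-Atp6, had 70931 and 67790 counts. Gm28661, identical to 681 bases of mt-Co2, had 59602 and 55091. Whether the overlap with mt-Atp8 lowers the counts of mt-Atp6 was not tested, so the order of these 2 genes is not settled. The complex III gene mt-Cytb followed at 2373 ± 74.6 CPM per kb.

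The complex I genes formed the lower part of the protein genes. In control cells mt-Nd4l had 1713 ± 307, mt-Nd1 had 1678 ± 196, mt-Nd4 had 1536 ± 167, mt-Nd6 had 1344 ± 300 and mt-Nd5 had 1184 ± 232 CPM per kb, a run in which each gene overlapped the next. The genes mt-Nd2, at 792 ± 117, and mt-Nd3, at 780 ± 24.9 CPM per kb, were the lowest. The same split held in the other groups: in each of the 6 libraries the 5 complex IV and V genes were above mt-Cytb, and mt-Cytb was above every complex I gene. The rRNA genes, which encode the core of the mitochondrial ribosome, lay far below, with mt-Rnr2 at 140 ± 25.6 and mt-Rnr1 at 96.1 ± 36.8 CPM per kb in control cells. Poly-A selection stands between these levels and the RNA in the cells, and its effect on each gene was not tested.

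**Figure D2:**
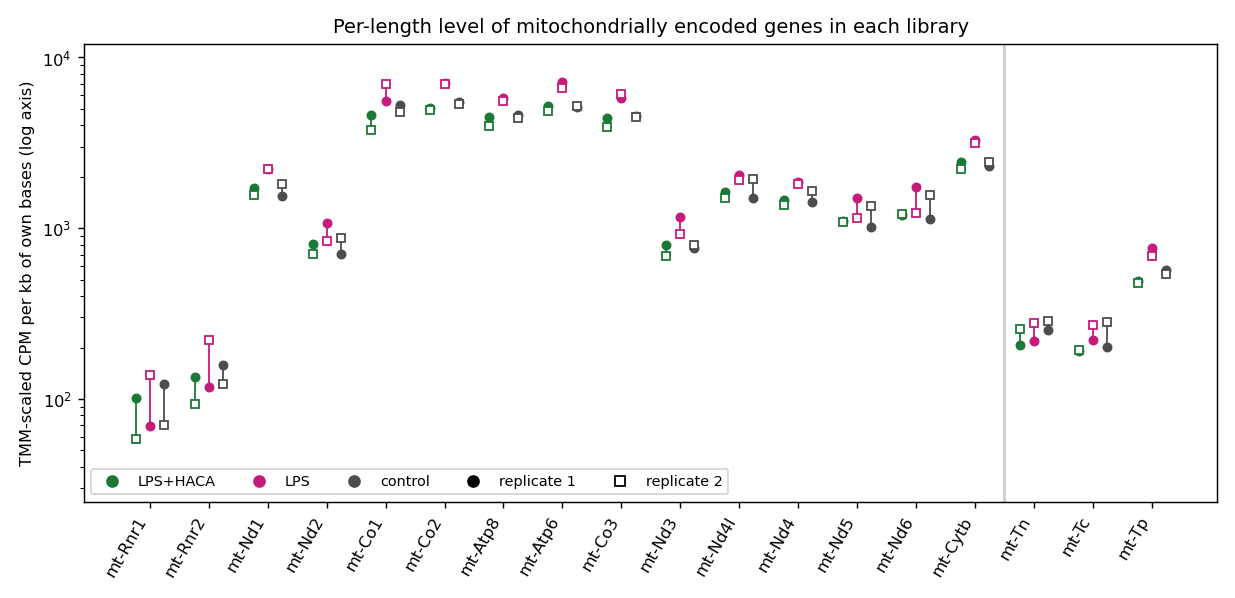
Level of the 15 rRNA and protein genes in map order, and of 3 tRNA genes, as TMM-scaled CPM per kb of own bases on a log axis; colours are the groups, filled circles replicate 1 and open squares replicate 2, joined by a line. Complex IV and V genes stand highest and the rRNA genes lowest in every library, and the LPS points sit above the others for most protein genes under this scaling.

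In the comparisons that involve LPS alone, the direction of the rRNA and protein genes depended on how libraries were scaled, while several tRNA genes kept their sign. As a plain share of matched counts, the mitochondrial genes took 3.44% and 2.98% in LPS+HACA cells, 3.08% and 2.61% in LPS cells, and 3.44% and 3.56% in control cells. The share was lower in both LPS libraries than in either control library, at a ratio of 0.81, with an exact two-sided permutation p = 0.333, the smallest that 2 against 2 allows. LPS+HACA and LPS shares overlapped, at a ratio of 1.13 (exact permutation p = 0.667). Genes of the annotation class misc_RNA held 24.3% to 29.2% of a library's matched counts. With these left out of the total, the shares were 4.55% and 4.13% in LPS+HACA cells and 4.07% and 3.69% in LPS cells. They were 4.69% and 4.96% in control cells. LPS+HACA and LPS then did not overlap (exact permutation p = 0.333). Among counts of protein-coding genes alone, mitochondrial genes took 5.41% and 4.87% in LPS+HACA cells, 4.69% and 4.24% in LPS cells, and 5.59% and 5.88% in control cells. Here too LPS+HACA and LPS did not overlap (exact permutation p = 0.333).

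After TMM scaling the order turned round. The summed mitochondrial level was 29059 and 26139 CPM in LPS+HACA cells, 37993 and 38662 CPM in LPS cells, and 29755 and 30631 CPM in control cells, so that LPS stood 1.27 times as high as control, and LPS+HACA 0.72 times as high as LPS. The TMM factors of the LPS libraries were 0.81 and 0.68, while those of the other 4 lay between 1.14 and 1.19. Using library totals in place of TMM moved the median log2 fold change over all 17113 genes tested to -0.69, against -0.05 under TMM, for LPS against control. For LPS+HACA against LPS it moved to 0.70, against 0.06 under TMM. These median shifts are larger than the changes of the rRNA and protein genes, though not than those of every tRNA gene. For mt-Tw the TMM log2 fold change of LPS against control was -0.89. The counts alone do not say which scaling reflects RNA per cell. In bulk samples, fewer cells of a type and less RNA per cell cannot be told apart.

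Replicates also stood apart in cell cycle genes and in markers of other cell types. Of 17 macrophage markers 16 were tested, with summed levels of 33700 and 37300 CPM in LPS+HACA cells, 46130 and 57950 CPM in LPS cells, and 44380 and 43690 CPM in control cells, most of it Lyz2, which encodes lysozyme. Under TMM edgeR called 3 of the 16 higher and 5 lower in LPS cells than in control cells at an adjusted p under 0.05. Over all genes tested these shares were 15.9% and 14.3%. The median log2 fold change of the 16 was -0.47. For LPS+HACA against LPS 1 was called higher and 3 lower, beside 5.74% and 7.67% of all genes. The macrophage marker Adgre1 had only 44 counts in all. Cell cycle genes summed to 2101 and 432 CPM in LPS+HACA cells, 2583 and 1110 CPM in LPS cells, and 1131 and 263 CPM in control cells, higher in replicate 1 of every group. Stromal markers, 3 of 7 tested, summed to 49.4 and 1.35 CPM in LPS+HACA cells, 32.2 and 1.93 CPM in LPS cells, and 47.1 and 1.72 CPM in control cells. Markers of neutrophils, 5 of 10 tested, ran the other way, at 4.98 and 37.3 CPM in LPS+HACA cells, 14.1 and 65.2 CPM in LPS cells, and 7.46 and 40.7 CPM in control cells. The part of these genes' cells in the mitochondrial results was not tested.

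LPS against control asks how mitochondrial transcripts stand after activation of the macrophages. With TMM scaling all 13 protein genes had positive fold changes, of 0.15 to 0.44 on the log2 scale, and none passed an adjusted p of 0.05 by edgeR's quasi-likelihood test. Over all genes tested, 30.1% were called in this comparison. Of the 27 mitochondrial genes that passed the filter on low counts, 2 had an unadjusted p under 0.05, mt-Atp6 and mt-Cytb, beside 42.1% of all genes, and neither DESeq2 nor limma-voom called any. Library totals gave negative fold changes for all 13 protein genes, of -0.47 to -0.20, again with none called.

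Complex IV, cytochrome c oxidase, takes its catalytic core from 3 mitochondrial genes. The level of mt-Co1, which encodes the subunit that reduces oxygen (chrM:5328-6872), was 7075 and 5777 CPM in LPS+HACA cells, 8622 and 10733 CPM in LPS cells, and 8102 and 7347 CPM in control cells. Both LPS libraries were above both controls, but the lower of them was nearer to the controls than to the other LPS library, with a log2 fold change of 0.33 ± 0.21 (SE) for LPS against control and an adjusted p of 0.273 in edgeR. The copper-binding subunit gene mt-Co2 (chrM:7013-7696) had 3470 and 3354 CPM in LPS+HACA cells, 4860 and 4782 CPM in LPS cells, and 3735 and 3640 CPM in control cells. The replicates of this gene were close in each group, and LPS stood above control by 0.39 ± 0.18 (edgeR adjusted p = 0.134). The third subunit gene, mt-Co3 (chrM:8607-9390), had 3440 and 3066 CPM in LPS+HACA cells, 4519 and 4769 CPM in LPS cells, and 3558 and 3515 CPM in control cells, a difference of 0.39 ± 0.18 between LPS and control (edgeR adjusted p = 0.139).

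The complex III gene mt-Cytb (chrM:14145-15288), which encodes cytochrome b, came nearest to the threshold. It had 2812 and 2555 CPM in LPS+HACA cells, 3735 and 3629 CPM in LPS cells, and 2655 and 2775 CPM in control cells. Both LPS libraries lay above both controls, by 0.44 ± 0.18 on the log2 scale, with an edgeR adjusted p of 0.102. Under library totals the same gene had 3030 and 2452 CPM in LPS cells and 3068 and 3222 CPM in control cells, a log2 fold change of -0.20.

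Both ATP synthase genes followed mt-Cytb. The level of mt-Atp6, which encodes part of the proton channel, was 3310 and 3100 CPM in LPS+HACA cells, 4567 and 4212 CPM in LPS cells, and 3250 and 3319 CPM in control cells, with LPS above control by 0.42 ± 0.18 (edgeR adjusted p = 0.116). Its small partner mt-Atp8 had 720 and 641 CPM in LPS+HACA cells, 937 and 891 CPM in LPS cells, and 737 and 711 CPM in control cells, a difference of 0.34 ± 0.18 (edgeR adjusted p = 0.203). Neither gene's LPS and control libraries overlapped.

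Among the 7 complex I genes, which encode the membrane arm of NADH dehydrogenase, 4 overlapped between LPS and control and 3 did not. The gene mt-Nd1 (chrM:2751-3707) had 1648 and 1503 CPM in LPS+HACA cells, 2114 and 2132 CPM in LPS cells, and 1470 and 1734 CPM in control cells. LPS exceeded control by 0.41 ± 0.19 for this gene (edgeR adjusted p = 0.142). The small subunit gene mt-Nd3 had 276 and 238 CPM in LPS+HACA cells, 403 and 322 CPM in LPS cells, and 265 and 278 CPM in control cells, a difference of 0.42 ± 0.21 (edgeR adjusted p = 0.166).

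The gene mt-Nd4 (chrM:10167-11544), whose first bases overlap the end of mt-Nd4l, had 2009 and 1871 CPM in LPS+HACA cells, 2571 and 2488 CPM in LPS cells, and 1944 and 2268 CPM in control cells, a difference of 0.26 ± 0.19 between LPS and control (edgeR adjusted p = 0.319). Its neighbour mt-Nd4l had 471 and 438 CPM in LPS+HACA cells, 591 and 555 CPM in LPS cells, and 434 and 560 CPM in control cells, at 0.21 ± 0.20 (edgeR adjusted p = 0.481). For mt-Nd4l the higher control library lay between the LPS libraries, so the groups overlapped.

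The remaining complex I genes were uneven between the replicates of LPS and of control. The level of mt-Nd2 (chrM:3914-4951) was 832 and 734 CPM in LPS+HACA cells, 1109 and 873 CPM in LPS cells, and 735 and 906 CPM in control cells, at 0.27 ± 0.22 for LPS against control (edgeR adjusted p = 0.376). For mt-Nd5 the values were 2007 and 1969 CPM in LPS+HACA cells, 2733 and 2080 CPM in LPS cells, and 1848 and 2440 CPM in control cells, at 0.17 ± 0.23 (edgeR adjusted p = 0.617). The minus-strand gene mt-Nd6 had 603 and 611 CPM in LPS+HACA cells, 881 and 621 CPM in LPS cells, and 571 and 786 CPM in control cells, at 0.15 ± 0.25 (edgeR adjusted p = 0.693). In mt-Nd2, mt-Nd5 and mt-Nd6 the second LPS library lay below the second control library.

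Counted by libraries, 9 of the 13 protein genes had both LPS values above both control values under TMM, beside 31.4% of all genes tested. Under library totals 8 of the 13 had both LPS values below both control values, beside 56.8% of all genes. Relative to the median gene, the median of the 13 lay 0.39 higher on the log2 scale. A change of scaling shifts all genes by nearly the same amount, so this value was bound to be similar under both scalings. The 95% intervals of the 13 fold changes under TMM ran from -0.42 to 0.90, which allows anything between a 1.34-fold lower and a 1.86-fold higher level in LPS cells.

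The rRNA genes were uneven between the replicates of every group. The large-subunit rRNA mt-Rnr2 (chrM:1094-2675) had 212 and 148 CPM in LPS+HACA cells, 185 and 348 CPM in LPS cells, and 251 and 193 CPM in control cells. The small-subunit rRNA mt-Rnr1 (chrM:70-1024) had 96.5 and 55.2 CPM in LPS+HACA cells, 66.5 and 132 CPM in LPS cells, and 117 and 66.9 CPM in control cells. The LPS libraries enclosed both controls for each gene, and the log2 fold changes of LPS against control were 0.26 ± 0.33 for mt-Rnr2 and 0.11 ± 0.43 for mt-Rnr1 (edgeR adjusted p = 0.590 and 0.871). As a share of mitochondrial counts, rRNA took 1.06% and 0.78% in LPS+HACA cells, 0.66% and 1.24% in LPS cells, and 1.23% and 0.85% in control cells.

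LPS+HACA against LPS asks how HACA moves the LPS-treated cells. With TMM scaling every protein gene was lower in LPS+HACA cells than in LPS cells, with no overlap for any of the 13, beside 27.3% of all genes tested that were lower without overlap. The log2 fold changes ran from -0.59 to -0.28, and edgeR's quasi-likelihood test called none at an adjusted p of 0.05, whereas 13.4% of all genes tested were called. An unadjusted p under 0.05 was reached by 8 of the 27 tested mitochondrial genes, beside 30.8% of all genes. DESeq2 called 1, mt-Co2, as lower (adjusted p = 0.0498), and limma-voom called none. Library totals turned all 13 protein genes round, to log2 fold changes of 0.07 to 0.35, with 3 of 13 higher without overlap beside 56.8% of all genes, and none called.

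Under TMM the complex IV genes had the largest differences of the protein genes between LPS+HACA and LPS, whereas under library totals they were among the smallest, at 0.0704 for mt-Co1, 0.14 for mt-Co3 and 0.14 for mt-Co2. The log2 fold change was -0.59 ± 0.21 for mt-Co1, -0.50 ± 0.18 for mt-Co2 and -0.51 ± 0.18 for mt-Co3 (edgeR adjusted p = 0.09995, 0.0997 and 0.0997). Leaving out the first LPS library brought mt-Co1 and mt-Rnr2 under the threshold (edgeR adjusted p = 0.0361 and 0.0411), and both had lower levels in that library than in the second. For mt-Cytb the difference was -0.46 ± 0.18 (edgeR adjusted p = 0.131), and for the ATP synthase genes it was -0.45 ± 0.18 for mt-Atp6 and -0.43 ± 0.18 for mt-Atp8 (edgeR adjusted p = 0.132 and 0.162).

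The complex I genes spread more widely. The log2 fold change of LPS+HACA against LPS was -0.50 ± 0.21 for mt-Nd3 and -0.43 ± 0.19 for mt-Nd1 (edgeR adjusted p = 0.151 and 0.167). It was -0.38 ± 0.19 for mt-Nd4, -0.34 ± 0.22 for mt-Nd2 and -0.33 ± 0.20 for mt-Nd4l (edgeR adjusted p = 0.207, 0.326 and 0.308). Under TMM it was -0.31 ± 0.25 for mt-Nd6 and -0.28 ± 0.23 for mt-Nd5 (edgeR adjusted p = 0.437 and 0.445), the smallest of the protein genes. Under library totals these became the largest, at 0.31 and 0.35. For the rRNA genes the difference was -0.57 ± 0.33 for mt-Rnr2 and -0.39 ± 0.43 for mt-Rnr1 (edgeR adjusted p = 0.290 and 0.579). Over the protein genes the 95% intervals ran from -1.07 to 0.26. Relative to the median gene the median of the 13 lay 0.49 lower, a value that a change of scaling leaves nearly as it is. The near-common shift between scalings also turns round the order of the protein genes by size of change. This comparison uses the same LPS libraries as the one against control, so the opposite signs of the 2 are not separate observations.

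LPS+HACA against control compares the double treatment with untreated cells. The protein genes were close to their control levels, with log2 fold changes from -0.27 for mt-Co1 to -0.02 for mt-Cytb under TMM, and library totals gave -0.26 to -0.01. None of the 27 tested genes was called by edgeR, DESeq2 or limma-voom or had an unadjusted p under 0.05, where edgeR called 1.15% of all genes tested and 11.7% had such a p. The 3 complex IV genes had both LPS+HACA libraries below both controls, beside 23.1% of all genes that were lower without overlap, or 22.8% under library totals, where 3 of the 13 protein genes were lower. The 95% intervals of the 13 genes ran from -0.75 to 0.43, so that a level 1.68-fold lower or 1.35-fold higher than control is within them.

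**Figure D3:**
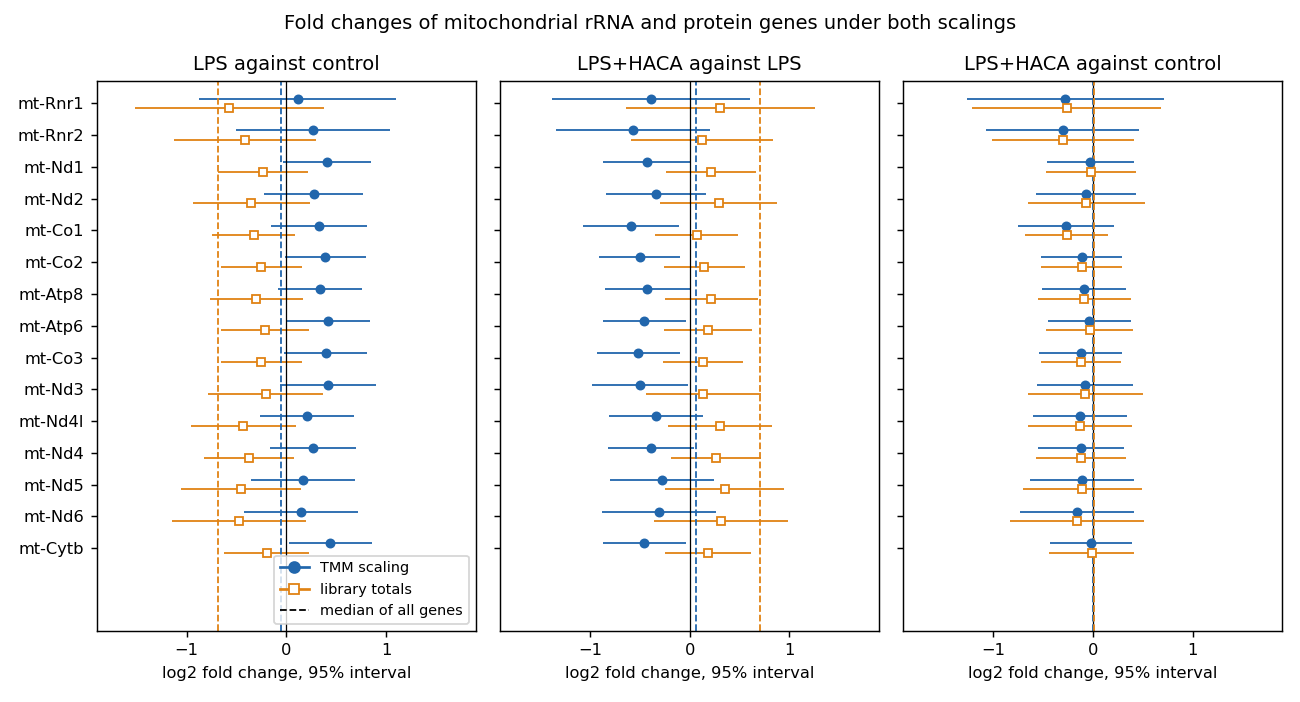
Log2 fold change of the 2 rRNA and 13 protein genes in map order, with 95% intervals from the edgeR fit, for LPS against control (left), LPS+HACA against LPS (middle) and LPS+HACA against control (right); filled circles use TMM scaling, open squares library totals, and dashed lines mark the median of all genes tested under each. The circles and squares lie on opposite sides of 0 in the left and middle panels and together in the right panel.

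Composition within the mitochondrial set does not depend on how libraries are scaled. Of the counts of the 13 protein genes, mt-Co1 took 24.7% and 22.3% in LPS+HACA cells, 22.9% and 28.2% in LPS cells, and 27.6% and 24.3% in control cells. The share of mt-Nd5 was 7.0% and 7.61% in LPS+HACA cells, 7.26% and 5.46% in LPS cells, and 6.30% and 8.06% in control cells. The 2 libraries with the highest share of mt-Co1 had the lowest shares of mt-Nd5, and the ratio of mt-Co1 to mt-Nd5 counts was 3.52 and 2.93 in LPS+HACA cells, 3.15 and 5.16 in LPS cells, and 4.39 and 3.01 in control cells. The replicates of LPS and of control differed more in this ratio than the groups' means, which were 3.23 for LPS+HACA, 4.16 for LPS and 3.70 for control.

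The second LPS library and the first control library had the 2 highest values of both the mt-Co1 to mt-Nd5 ratio and the rRNA share. The share of mt-Cytb was 9.81% and 9.88% in LPS+HACA cells, 9.92% and 9.53% in LPS cells, and 9.06% and 9.17% in control cells. The shares sum to a whole within each library, so a rise of 1 gene lowers the others.

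**Figure D4:**
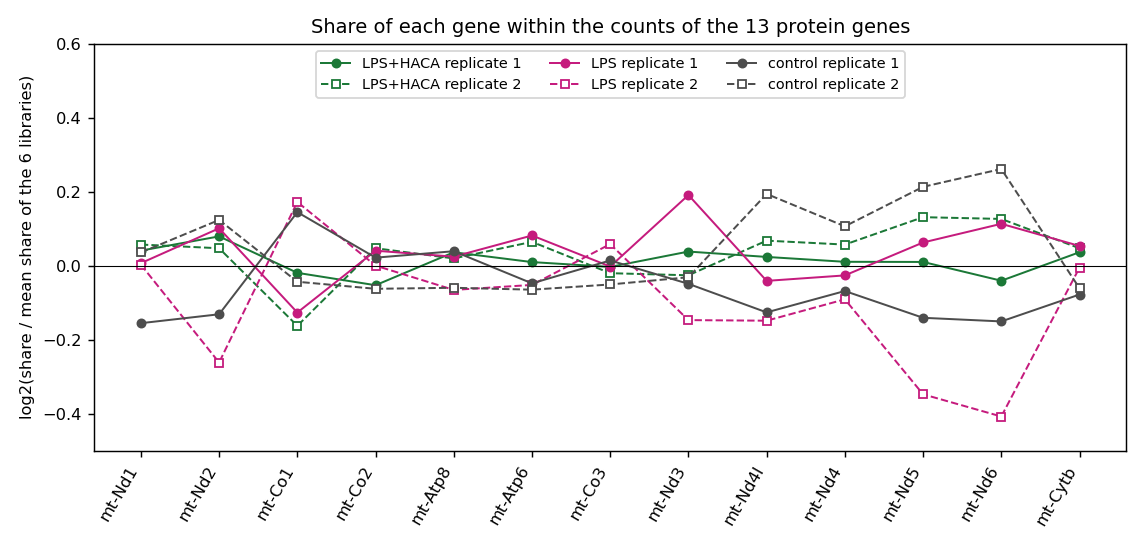
Share of each of the 13 protein genes in the protein-gene counts of a library, as log2 of the share over its mean in the 6 libraries (vertical axis), with genes in map order; colours are the groups, solid lines replicate 1 and dashed lines replicate 2. The second LPS library is low for mt-Nd2, mt-Nd5 and mt-Nd6 and high for mt-Co1, while the second control library is high for mt-Nd5 and mt-Nd6.

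Mitochondrial counts can also be set against the counts of the nuclear subunits of the same complexes within a library. For complex I, the 7 mitochondrial genes had 15.02 and 17.04 times the counts of the 33 tested nuclear subunit genes in LPS+HACA cells, 18.7 and 19.5 times in LPS cells, and 12.8 and 17.8 times in control cells. The LPS ratios were the highest, without overlap with either other group (exact permutation p = 0.333 each, the smallest possible). For complex III the ratio was 16.6 and 17.9 in LPS+HACA cells, 15.8 and 16.3 in LPS cells, and 16.2 and 19.2 in control cells. For complex IV it was 347 and 276 in LPS+HACA cells, 365 and 406 in LPS cells, and 391 and 343 in control cells.

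The complex V ratio was 16.5 and 16.6 in LPS+HACA cells, 17.5 and 17.3 in LPS cells, and 16.3 and 18.7 in control cells. Over all 13 mitochondrial and 65 nuclear subunit genes together it was 29.4 and 30.6 in LPS+HACA cells, 32.5 and 36.9 in LPS cells, and 28.9 and 33.4 in control cells, so LPS and control overlapped. LPS+HACA and LPS libraries did not overlap for any of these complexes. LPS+HACA was higher for complex III and lower for the others and for all together (exact permutation p = 0.333 each). The ratios compare libraries and not the amounts of the subunits. Each mitochondrial gene has 1 annotated transcript, whereas bases in 1 transcript only made up 50.3% of the exonic bases of Ndufv3 and 56.7% of those of Atp5b. The effect of this on the counts was not tested.

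The tRNA genes are cut out of the precursor, and mature tRNA carries no long poly-A tail. All 22 had at least 1 count, 7173 counts in all over the 6 libraries, or 0.25% to 0.30% of a library's mitochondrial counts. Of the 22, 12 passed the filter and 10, with 1 to 40 counts each, did not. The tRNAs for proline (mt-Tp, 3170 counts), asparagine (mt-Tn, 1473) and cysteine (mt-Tc, 1223) held 81.8% of all tRNA counts. They are printed in full for that reason, on the minus strand of chrM:15356-15422, chrM:5089-5159 and chrM:5192-5257, with the anticodon in capitals as found from the stem of 5 base pairs around it.
mt-Tp: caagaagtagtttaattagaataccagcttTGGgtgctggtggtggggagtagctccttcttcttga
mt-Tn: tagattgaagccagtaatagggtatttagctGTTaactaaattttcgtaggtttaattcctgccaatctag
mt-Tc: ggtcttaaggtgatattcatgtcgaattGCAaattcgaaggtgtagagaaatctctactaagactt

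In the chromosome's numbering from its first base, these 3 are also the tRNA genes with 30 or more unannotated bases beside them. The gene mt-Tp borders 877 such bases, the control region where replication and transcription start, and mt-Tn and mt-Tc flank a gap of 32 bases, which holds the origin of light-strand replication. The other 19 tRNA genes had 1 to 257 counts each. The 8 minus-strand tRNA genes held 88.0% of tRNA counts, and the tRNA for phenylalanine, mt-Tf, which meets the other end of the control region on the circular chromosome, had 2 counts. How much of these counts came from mature tRNA was not tested.

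Of the tRNA genes, mt-Tp behaved most like the protein genes. It had 32.98 and 31.8 CPM in LPS+HACA cells, 51.03 and 46.2 CPM in LPS cells, and 38.2 and 36.3 CPM in control cells. Under TMM its log2 fold change was 0.38 ± 0.21 for LPS against control and -0.59 ± 0.21 for LPS+HACA against LPS (edgeR adjusted p = 0.204 and 0.106), and both flipped to -0.25 and 0.05 under library totals. The gene mt-Tn had 14.7 and 18.3 CPM in LPS+HACA cells, 15.6 and 19.8 CPM in LPS cells, and 18.1 and 20.4 CPM in control cells. Its TMM fold change for LPS against control was -0.12 ± 0.26 (edgeR adjusted p = 0.769). The gene was called lower in LPS cells only when library totals were used, at -0.77 (edgeR adjusted p = 0.0412). The third, mt-Tc, had 12.6 and 12.8 CPM in LPS+HACA cells, 14.6 and 17.9 CPM in LPS cells, and 13.2 and 18.7 CPM in control cells, at 0.03 ± 0.27 for LPS against control (edgeR adjusted p = 0.951).

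The other 5 tRNA genes with at least 100 counts were all under 5 CPM. The leucine tRNA mt-Tl2 had 3.77 and 3.11 CPM in LPS+HACA cells, 4.63 and 1.35 CPM in LPS cells, and 2.76 and 2.91 CPM in control cells, at 0.07 ± 0.54 for LPS against control (edgeR adjusted p = 0.934). The tyrosine tRNA mt-Ty had 2.61 and 2.10 CPM in LPS+HACA cells, 1.77 and 2.31 CPM in LPS cells, and 1.63 and 2.51 CPM in control cells, at -0.02 ± 0.43 (edgeR adjusted p = 0.980). The tryptophan tRNA mt-Tw had 1.52 and 1.22 CPM in LPS+HACA cells, 0.79 and 0.77 CPM in LPS cells, and 1.07 and 1.85 CPM in control cells, at -0.89 ± 0.54 (edgeR adjusted p = 0.247). Under TMM it was the 1 of 12 tested tRNA genes whose LPS libraries both lay below both controls, as was so for 35.3% of all genes tested, whereas under library totals 9 of the 12 did, beside 56.8% of all genes.

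The glutamate tRNA mt-Te had 1.09 and 1.76 CPM in LPS+HACA cells, 1.38 and 0.58 CPM in LPS cells, and 1.25 and 2.05 CPM in control cells, at -0.75 ± 0.60 for LPS against control (edgeR adjusted p = 0.378). The serine tRNA mt-Ts2 had 1.76 and 1.28 CPM in LPS+HACA cells, 1.18 and 1.25 CPM in LPS cells, and 0.94 and 1.32 CPM in control cells, at 0.11 ± 0.50 (edgeR adjusted p = 0.897). For LPS+HACA against LPS the fold changes of these 5 and of mt-Tn and mt-Tc lay between -0.36 for mt-Tc and 0.81 for mt-Tw, and none was called. Each of these 5 genes had at most 257 counts over the 6 libraries.

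Nuclear genes that copy, transcribe, process and translate the mitochondrial genome give the setting of these transcripts. In the called genes named below, bases in 1 annotated transcript only made up from 31.6% (Mrpl52) to 100% (Uqcrfs1) of exonic bases. How far shifts between transcripts of a gene bear on its summed counts was not tested. The counts over lists refer to edgeR calls under TMM at an adjusted p of 0.05, with 15.9% of all genes tested called higher and 14.3% lower for LPS against control, and 5.74% higher and 7.67% lower for LPS+HACA against LPS. Under library totals edgeR called 1417 genes higher and 5111 lower for LPS against control, and 3501 higher and 522 lower for LPS+HACA against LPS. Among 9 tested genes for mitochondrial transcription, 1 was higher and 2 lower in LPS cells. DESeq2 called 1 of them higher and 1 lower, and limma-voom 1 higher and none lower. Tfam, which packages the DNA and starts transcription, had 23.9 and 20.8 CPM in LPS+HACA cells, 29.5 and 24.3 CPM in LPS cells, and 19.7 and 20.4 CPM in control cells, at 0.42 ± 0.24 for LPS against control (edgeR adjusted p = 0.213). Like that of mt-Cytb, its fold change was negative under library totals, at -0.21. Tfb2m, the other initiation factor, was at -0.03 ± 0.32 (edgeR adjusted p = 0.958), and Mterf3, which restrains transcription, was called higher at 0.79 ± 0.25 (edgeR adjusted p = 0.0461). The RNA polymerase gene Polrmt had 33 counts over 10.2% of its exonic bases and was not tested.

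Genes that maintain mitochondrial DNA included the largest single change of these lists. Of 18 tested, 2 were higher and 5 lower in LPS cells than in control cells. Cmpk2, the nucleotide kinase that supplies dCTP to mitochondria and is known for LPS-induced mitochondrial DNA synthesis, had 95.5 and 73.1 CPM in LPS+HACA cells, 493 and 371 CPM in LPS cells, and 8.41 and 7.54 CPM in control cells. It rose by 5.76 ± 0.29 in LPS cells (edgeR adjusted p = 9.7e-05) and fell by 2.36 ± 0.25 on the log2 scale in LPS+HACA cells relative to LPS cells (edgeR adjusted p = 0.00339). It remained 3.40 ± 0.26 above control in LPS+HACA cells (edgeR adjusted p = 0.00364), the only gene of these lists that edgeR called in that comparison, where 0.894% of all genes were called higher and 0.257% lower. The call was lost without the first or the second control library (adjusted p = 0.121 and 0.0996). The helicase gene Twnk had 5.89 and 5.14 CPM in LPS+HACA cells, 2.17 and 2.12 CPM in LPS cells, and 8.28 and 10.8 CPM in control cells, at -2.15 ± 0.33 for LPS against control (edgeR adjusted p = 0.00255). The nucleoside kinase genes Dguok, at -1.78 ± 0.30, and Tk2, at -1.96 ± 0.39, were also lower (edgeR adjusted p = 0.00382 and 0.0076), and the nucleotide carrier gene Slc25a33 was higher at 2.93 ± 0.65 (edgeR adjusted p = 0.0168). The polymerase gene Polg was at 0.22 ± 0.40 (edgeR adjusted p = 0.719).

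For RNA processing and decay, 1 of 18 tested was higher in LPS cells by edgeR, and none was lower by edgeR, DESeq2 or limma-voom, with 1 lower at an unadjusted p under 0.05. Under library totals edgeR called 1 higher and 6 lower of the same 18. Pde12, which removes tails from mitochondrial RNA, had 58.7 and 63.2 CPM in LPS+HACA cells, 145 and 129 CPM in LPS cells, and 37.3 and 49.6 CPM in control cells, at 1.66 ± 0.23 for LPS against control and -1.17 ± 0.23 for LPS+HACA against LPS (edgeR adjusted p = 0.00186 and 0.018). Lrpprc, which stabilises mitochondrial messenger RNAs, had 54.3 and 56.8 CPM in LPS+HACA cells, 53.3 and 48.4 CPM in LPS cells, and 53.1 and 56.5 CPM in control cells (edgeR adjusted p = 0.732 for LPS against control). Pnpt1, part of the degrading enzyme, was at 0.81 ± 0.56 (edgeR adjusted p = 0.309). Slirp, the binding partner of Lrpprc, had 2 counts, with no exonic base of its own, and the tRNA-cutting enzyme gene Elac2 had 25 counts, so neither was tested.

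Translation genes were mixed in direction. Of 12 tested tRNA modification genes 1 was higher and 2 lower in LPS cells, among them Yrdc at 1.97 ± 0.29, which makes a tRNA modification, and Mtfmt at -1.62 ± 0.33, which formylates the initiator tRNA (edgeR adjusted p = 0.00236 and 0.00842). Of 17 translation factor genes 6 were lower in LPS cells, led by the rRNA methylase gene Mrm2 at -3.07 ± 0.38, the elongation factor gene Guf1 at -2.14 ± 0.41 and the ribosome recycling gene Gfm2 at -0.97 ± 0.28 (edgeR adjusted p = 0.00111, 0.00698 and 0.0331). Of 74 tested genes for proteins of the mitochondrial ribosome 6 were higher and 5 lower, against 2 higher and 18 lower under library totals. Named by the rule were Mrpl39, at 2.25 ± 0.23, Mrpl54, at 1.69 ± 0.25, and Mrpl52, at 1.46 ± 0.46, on the higher side (edgeR adjusted p = 0.000512, 0.00216 and 0.0441). Mrpl42, at -2.48 ± 0.53, Mrps35, at -2.20 ± 0.33, and Mrpl41, at -1.11 ± 0.32, led the lower side (edgeR adjusted p = 0.0108, 0.00246 and 0.0339).

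Library totals gave different counts of calls for the nuclear subunits as well. For complex I, 5 of 33 tested nuclear genes were lower and 1 higher in LPS cells, against fold changes of 0.15 to 0.42 with no call for its mitochondrial genes. Under library totals 14 of the 33 were lower and none higher. The lower ones included accessory subunit genes, Ndufb8 at -1.60 ± 0.50, Ndufv3 at -1.39 ± 0.35 and Ndufa6 at -1.03 ± 0.30 (edgeR adjusted p = 0.0441, 0.0196 and 0.0333). In complex III, the iron-sulphur subunit gene Uqcrfs1 was higher at 0.72 ± 0.21, and in complex V the catalytic subunit gene Atp5b was higher at 0.76 ± 0.21 (edgeR adjusted p = 0.035 and 0.0303). None of 10 nuclear complex IV genes was called by edgeR, DESeq2 or limma-voom, and 1 had an unadjusted p under 0.05. For LPS+HACA against LPS edgeR called none of the 65 nuclear subunit genes tested, with 8 higher and 3 lower at an unadjusted p under 0.05. DESeq2 called 2 of them lower and limma-voom 1. Under library totals edgeR called 9 complex I and 2 complex V genes higher and none lower.

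The lists' median log2 fold changes for LPS against control were -0.33 for DNA maintenance, 0.14 for transcription, 0.04 for RNA processing and decay, -0.54 for tRNA modification, -0.66 for translation factors and 0.01 for ribosomal proteins, beside -0.05 for all genes. They were -0.45, 0.35, 0.12 and -0.13 for the nuclear subunits of complexes I, III, IV and V, and 0.81 for biogenesis regulators. Library totals gave 2 higher and 8 lower for DNA maintenance, 3 lower for transcription, 1 higher and 7 lower for tRNA modification, 7 lower for translation factors and 2 lower for biogenesis regulators. Under library totals each of these medians was lower, and only that of the biogenesis regulators was positive, at 0.17.

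Regulators of mitochondrial biogenesis were split, with 2 of 10 tested higher and 2 lower in LPS cells. Esrra, a nuclear receptor that drives respiratory genes, was at 1.08 ± 0.31, and Perm1, a cofactor known from muscle, at 0.89 ± 0.26 (edgeR adjusted p = 0.0322 and 0.0373). Tfeb, the regulator of lysosomes, had 25.7 and 29.9 CPM in LPS+HACA cells, 2.96 and 7.61 CPM in LPS cells, and 24.4 and 34.1 CPM in control cells, at -2.46 ± 0.43 (edgeR adjusted p = 0.00474). The coactivator gene Ppargc1b was lower at -2.76 ± 0.61 with at most 3.17 CPM in any library (edgeR adjusted p = 0.0117), Ppargc1a had no counts in any library, and Nrf1 was at 0.80 ± 0.31 (edgeR adjusted p = 0.0923).

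For LPS+HACA against LPS, 12 genes of these lists met the rule for naming, and the LPS libraries are the same as in the comparison with control. Higher in LPS+HACA cells were Twnk at 1.36 ± 0.32, Dguok at 1.23 ± 0.30, Mtfmt at 1.60 ± 0.33, Mrm2 at 1.96 ± 0.38, Guf1 at 1.85 ± 0.41, Mrps35 at 1.74 ± 0.33 and Tfeb at 2.39 ± 0.43 (edgeR adjusted p between 0.014 and 0.0328). Lower, besides Cmpk2 and Pde12, were Yrdc at -1.70 ± 0.29, Mrpl39 at -1.35 ± 0.22 and Mrpl54 at -1.30 ± 0.24 (edgeR adjusted p between 0.0106 and 0.0156). Cmpk2 was the only one of the 12 called in all 16 alternative fits. The other 11 lost the call when a library was left out, at adjusted p-values of at most 0.166. Pde12, Mrpl39 and Mrpl54 also lost it under library totals (edgeR adjusted p = 0.160, 0.0832 and 0.0844).

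For LPS against control, 10 of the 26 named nuclear genes were called in all 16 alternative fits: Cmpk2, Twnk, Dguok, Pde12, Yrdc, Mrm2, Mrpl39, Mrpl54, Mrps35 and Tfeb. The other 16 lost the call when 1 library was left out, at adjusted p-values of at most 0.267. Mterf3, Mrpl52, Uqcrfs1, Atp5b, Esrra and Perm1 also lost it under library totals.

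**Figure D5:**
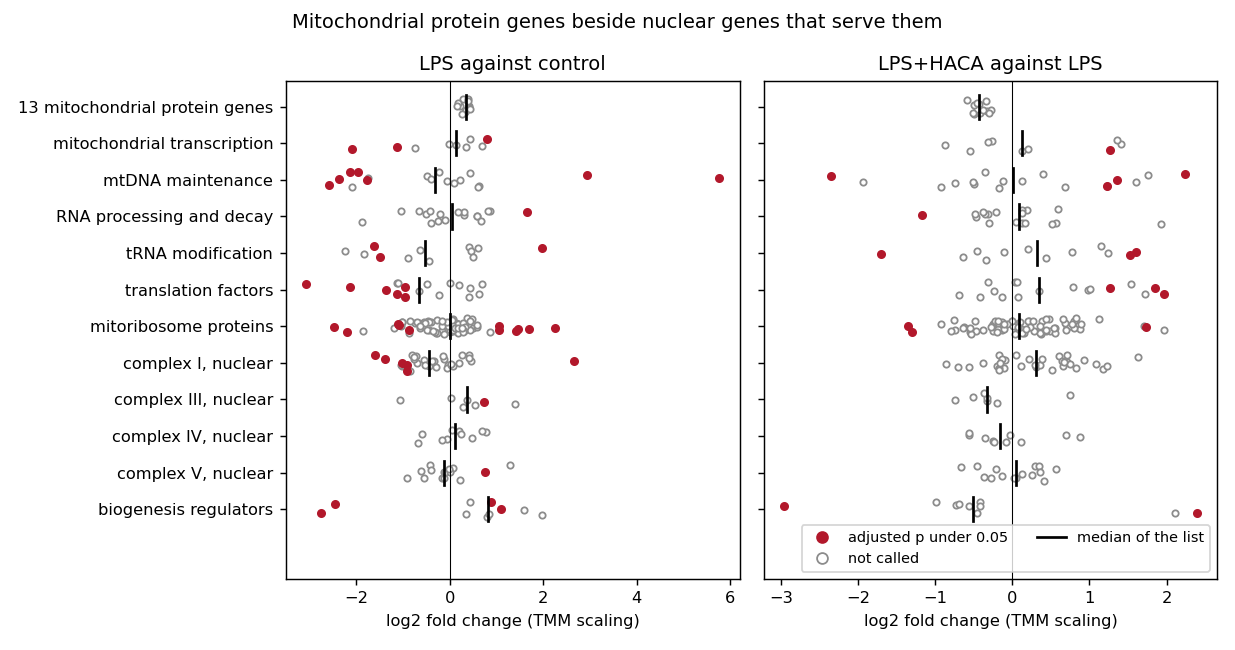
Log2 fold changes under TMM scaling of the 13 mitochondrial protein genes (top) and of the tested nuclear genes of 11 lists, for LPS against control (left) and LPS+HACA against LPS (right); each point is a gene, filled red where called at an adjusted p under 0.05, and the black bar is the list's median. The 13 mitochondrial genes fall within a narrow band in both panels, while single nuclear genes reach much larger changes, Cmpk2 at 5.76 in the left panel and -2.36 in the right.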

How the data were processed

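Whole-number read counts per annotated transcript were deposited by the authors, together with FPKM values, per the file headers. The deposited FPKM were used only to check the counts. Tools listed in the submitters' processing notes, without saying what each did, include STAR 2.5.4b, edgeR 3.28.1 and DESeq2 1.26.0; GRCm38 is the mouse build listed. Which program counted the reads, how it treated shared reads and whether it used strand is not given in the sources used here. Counts of the 141524 transcripts found in GENCODE M21, of 142647 listed, were summed to 55263 genes, in place of the gene counts planned for. The 1123 remaining transcripts, with no more than 0.115% of the counts in any library, were left out.

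Genes were filtered with filterByExpr and scaled by TMM, and all 6 libraries entered 1 quasi-likelihood model of edgeR 4.0.16 (R 4.3.3) with group as its only term. It tested 17113 genes with 3 residual degrees of freedom, Benjamini-Hochberg adjustment over all of them, and a call at an adjusted p under 0.05. CPM are TMM-scaled unless library totals are named. Standard errors were derived as the log2 fold change over the square root of F, and 95% intervals from them. Single values per library were compared by exact permutation. The procedure was run on simulated counts with known changes. That run did not test the choice of scaling or changes as small as those of the mitochondrial protein genes. Nuclear copies were found with BLAST 2.17.0 at 95% identity or more over at least 50 bases. DESeq2 1.42.0, limma 3.58.1 and the other alternatives are given in the closing section.

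The members and the nuclear gene lists were chosen with earlier results of these data known. Values are given for every rRNA and protein gene and for tRNA genes with at least 100 counts that were tested. From each nuclear list and comparison, up to 3 called genes per direction are named, those with the largest change among genes with no overlap and at least 5 CPM in the higher group, plus Polrmt, Tfam, Tfb2m, Twnk, Polg, Cmpk2, Lrpprc, Slirp, Pnpt1, Elac2, Ppargc1a, Ppargc1b and Nrf1. Sequences are GENCODE M21 transcripts of GRCm38.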

Additional observations from a re-analysis of the deposited data

How the results depend on the processing

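A sign change of an uncalled gene was counted as a reversal only where its TMM value was larger than its standard error. Library totals in place of TMM reversed the median log2 fold change of the 13 protein genes, to -0.30 for LPS against control and 0.22 for LPS+HACA against LPS; the cause was not tested. For LPS against control the single genes became -0.24 for mt-Nd1, -0.35 for mt-Nd2, -0.33 for mt-Co1, -0.25 for mt-Co2, mt-Co3 and mt-Tp, -0.30 for mt-Atp8, -0.22 for mt-Atp6, -0.21 for mt-Nd3 and Tfam, -0.43 for mt-Nd4l, -0.37 for mt-Nd4 and -0.20 for mt-Cytb. For LPS+HACA against LPS they became 0.12 for mt-Rnr2, 0.22 for mt-Nd1 and mt-Atp8, 0.29 for mt-Nd2, 0.0704 for mt-Co1, 0.14 for mt-Co2, mt-Co3 and mt-Nd3, 0.19 for mt-Atp6, mt-Cytb and Polg, 0.31 for mt-Nd4l and mt-Nd6, 0.26 for mt-Nd4, 0.35 for mt-Nd5, 0.0528 for mt-Tp, 0.30 for mt-Tc, 0.37 for Tfam, 0.21 for Nrf1 and 0.11 for Mterf3. Leaving out 1 library at a time, Pnpt1 ran from -0.0458 to 1.44 for LPS against control and Polg from -0.996 to 0.26 for LPS+HACA against LPS.

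The mitochondrial calls were few under every setting. Library totals called 1 gene lower for LPS against control, mt-Tn. For LPS+HACA against LPS, DESeq2 called 1 lower (mt-Co2), no filter on low counts called 1 (mt-Co1), and leaving out libraries called 0 to 2. For all genes, LPS against control gave 2715 higher and 2442 lower, library totals 1417 and 5111, and leaving out libraries 1190 to 3024 and 916 to 2817. LPS+HACA against LPS gave 983 higher and 1312 lower, library totals 3501 and 522, no filter 1845 higher, and leaving out libraries 152 to 1617 and 216 to 1793. LPS+HACA against control gave 153 higher and 44 lower, DESeq2 467 and 199, no filter 661 and 250, limma-voom 74 lower, library totals 24 lower, and leaving out libraries 0 to 420 and 0 to 186.

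With the replicate number as a block, mt-Cytb became the 1 mitochondrial gene called higher in LPS cells than in control cells (edgeR adjusted p = 0.0444). The replicate block called 4 lower for LPS+HACA against LPS, mt-Co1, mt-Co2, mt-Co3 and mt-Tp (adjusted p = 0.0361, 0.0359, 0.0359 and 0.0439). Over all 17113 genes tested the replicate block gave 3506 higher and 3384 lower for LPS against control. It gave 1955 higher and 2356 lower for LPS+HACA against LPS, and 628 and 307 for LPS+HACA against control. Differences between replicates correlated across all genes at 0.55, 0.56 and 0.33 for the 3 pairs of groups, but across the 27 mitochondrial genes at -0.54 for LPS+HACA and LPS, 0.42 for LPS+HACA and control and -0.34 for LPS and control. Cell cycle genes and stromal and neutrophil markers also split by replicate number in the same direction in every group. The labels do not say what a number marks, and 2 pairs are too few to tell. The main fit therefore treated the samples as sharing only a number.

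With 2 libraries per group, the intervals of the 13 protein genes stay wide. Reads shared with nuclear copies, the unknown strand setting, poly-A selection and the scaling all bear on the levels.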
